A study of Mus musculus with 2 samples.

Results

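Adventitial Pi16/Dpp4 fibro-adipogenic progenitors (FAPs) were described in single-cell RNA-seq of mouse limb muscle, with 1 library for Maraviroc (MVC) treatment and 1 for its vehicle, DMSO. They comprised 146 of 10891 kept cells, 67 of 5437 in the DMSO library and 79 of 5454 in the MVC library. A cell was taken as a FAP when it held at least 1 unique molecular identifier (UMI, a count of captured RNA molecules) of Pdgfra, at least 5 of Dcn and under 2 each of the leukocyte gene Ptprc and the endothelial gene Cdh5, which left 2252 cells. Within these, the detected genes of 4 sets of 5 were counted. A cell was a member when at least 2 of Pi16, Dpp4, Sbsn, Dmkn and Cd55 were detected and this set was strictly ahead of the parenchymal set (Cxcl14, Mme, Smoc2, Col15a1, Col6a6), the Gdf10/C7 set (Gdf10, C7, Inmt, Penk, Igfbp3) and the inflammatory set (Ifi205, Ptx3, Ifi211, Dio2, Plau). The same rule placed 852, 214 and 418 cells in those 3 other groups and left 622 with no set ahead.

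Both libraries held live mononuclear muscle cells, sorted after red blood cells were lysed. Treatment was by intraperitoneal injection in aged C57BL/6 mice per the study's methods. The dose, the duration and the number of mice behind each library were not given in the labels. The study presents its single-cell data with its high-dose, short-term regime. Each group was 1 library, so no difference below could be set against the spread between mice. Every difference describes these 2 libraries, and the 95% intervals cover counting error only. The members were deep cells, with a median of 14038 UMIs (4982 to 30435) in the DMSO and 12523 (2467 to 27777) in the MVC library, against 10360 and 9842 in the other FAPs. No barcode belonged to members of both libraries, although 9 barcodes occurred in both libraries.

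FAPs are the resident mesenchymal progenitors of skeletal muscle, which lie between the fibres, secrete matrix and growth factors for muscle stem cells, and can turn into fibroblasts or adipocytes. The Pi16+ Dpp4+ fibroblasts lie in the connective tissue sheaths and the outer layer (adventitia) of larger vessels, occur in many organs, and are regarded as a progenitor pool for more specialised fibroblasts. Dpp4 (CD26) is a peptidase at the cell surface, Pi16 (peptidase inhibitor 16) a member of the CAP protein family, and Cd55 a membrane protein that shields cells from complement. MVC is a drug that blocks chemokine signalling. Ccl3, Ccl4 and Ccl5 are chemokines that draw macrophages and T cells.

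The cells were chosen by their measured UMIs of the 20 rule genes, so the marker genes are given first, as a description. Pi16 stood at 1256 CPM (counts scaled to a sum of 1000000 per library and group) in the members of the DMSO and 1276 CPM in those of the MVC library, against 108 and 151 CPM in the other FAPs. Dpp4 stood at 521 and 486 CPM, against 67.2 and 76.7 CPM. Cd55 stood at 953 CPM in the DMSO and 1445 CPM in the MVC members, against 131 and 154 CPM. In each of these 3 genes the inflammatory group was next after the members, with Pi16 at 166 and 252 CPM. Sbsn and Dmkn encode the secreted proteins suprabasin and dermokine, best known from epidermis. Sbsn was found at 609 and 432 CPM in the members and at 7.52 and 15.3 CPM in the other FAPs. Dmkn was found at 720 CPM in the DMSO and 236 CPM in the MVC members, and at 2.79 and 0.979 CPM in the other FAPs. Just outside the rule, the 56 DMSO and 77 MVC cells in which the adventitial set was tied at 2 or more held Pi16 at 503 and 761 CPM, whereas the 36 and 38 members ahead by 1 gene held it at 1035 and 935 CPM.

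Pi16, Dpp4 and Cd55 marked nearly every member, whereas Sbsn and Dmkn split the group, and they did so differently in the 2 libraries. A Pi16 UMI was found in 98.5% of DMSO and 98.7% of MVC members, and a Dpp4 UMI in 97.0% and 94.9%. The rule, which asks for at least 2 of these genes, favours such shares. Among the other FAPs of the DMSO and MVC libraries, Pi16 was found in 22.8% and 27.2%. Dpp4 was found there in 25.7% and 23.9%, and Cd55 in 35.1% and 41.5%. Dmkn was found in 70.1% of DMSO and 34.2% of MVC members, and in 59.7% and 20.3% once every cell was thinned to 4000 UMIs. Sbsn was found in 80.6% and 57.0%, and in 62.7% and 45.9% after thinning. Cells with at least 2 UMIs of Cdh5, which should lack Dmkn, held it in 0.253% and 0.188% of cells at median depths of 4241 and 4059 UMIs. All 5 marker genes were seen together in 45 of 67 DMSO members (67.2%, exact binomial 95% CI 54.6 to 78.2) and in 24 of 79 MVC members (30.4%, 20.5 to 41.7). These genes also chose the cells. The count was not made at equal depth, and MVC members were shallower (median 12523 against 14038 UMIs).

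**Figure D1:**
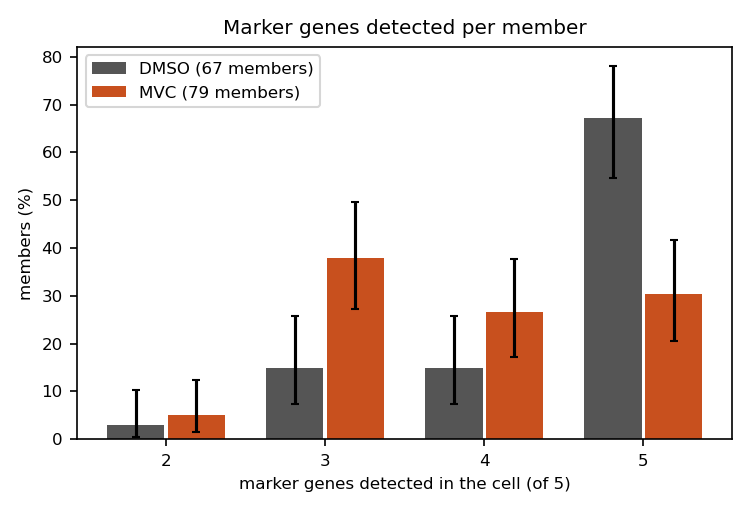
The share of members (y axis, %) by the number of the 5 marker genes detected in the cell (x axis), for 67 DMSO (grey) and 79 MVC members (orange), with exact binomial 95% intervals as error bars. Most DMSO members (67.2%) held all 5 genes, while MVC members were spread over 3 (37.97%), 4 (26.6%) and 5 genes (30.4%). The 5 genes are those of the rule, and cells were not thinned to equal depth.

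Among the 5 marker genes, Dmkn had the ratio farthest from 1. Its ratio of MVC to DMSO within members was 0.328 (exact conditional 95% CI 0.281 to 0.382), and the ratio over all FAPs, which does not depend on who was called a member, was 0.316 (0.272 to 0.366). Sbsn had a ratio of 0.709 (0.624 to 0.805) in members and 0.844 (0.755 to 0.944) over all FAPs. Cd55 was higher in MVC members, with a ratio of 1.52 (1.39 to 1.65), and 1.29 (1.22 to 1.36) over all FAPs. For Pi16 the ratio was 1.02 (0.938 to 1.10) in members, which were chosen by it, and 1.18 (1.12 to 1.25) over all FAPs. For Dpp4 it was 0.931 (0.820 to 1.06) and 1.04 (0.963 to 1.13). Of the other rule genes, Igfbp3 (50.6 and 3.11 CPM) and Inmt (307 and 74.6 CPM) had lower ratios in members than Dmkn, at 0.0614 and 0.243. The Sbsn count is less certain, since 25.8% of the 31-base words in its last 1000 bases also occur in Tmem147os.

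Sbsn, Dmkn and Krtdap, the last of which encodes another secreted epidermal protein and was not part of the rule, lie side by side on the + strand of chromosome 7 (GRCm38). Sbsn spans 30751471 to 30756134, Dmkn 30763756 to 30781063 and Krtdap 30787896 to 30791097, so that 7622 and 6833 bases separate them and 39627 bases hold all 3. Krtdap was nearly absent from the other FAPs. It stood at 279 CPM in DMSO and 239 CPM in MVC members against 2.32 and 6.85 CPM in the other FAPs. Within the members it went with Dmkn: a Krtdap UMI was found in 78.7% of the 47 DMSO members with a Dmkn UMI and in 5% of the 20 without one, and in 85.2% of 27 and 13.5% of 52 MVC members. The members without a Dmkn UMI were shallower, with median UMIs of 8727 against 15601 in the DMSO and 10107 against 14613 in the MVC library, and the part of depth in this split was not tested. This split was chosen after the values were seen.

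Because these neighbours were detected together, the 250 bases before each RefSeq start site are shown (GRCm38.p6, + strand). Capitals mark the letters TGAGTCA, the binding sequence of AP-1 factors such as Fos and Jun, which were searched together with TGACTCA, its form on the opposite strand.
Sbsn, chr7:30751221-30751470: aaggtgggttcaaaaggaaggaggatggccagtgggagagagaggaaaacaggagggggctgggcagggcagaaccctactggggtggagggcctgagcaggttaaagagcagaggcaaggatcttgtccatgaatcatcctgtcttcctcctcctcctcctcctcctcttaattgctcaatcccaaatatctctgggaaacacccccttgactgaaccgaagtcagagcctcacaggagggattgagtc
Dmkn, chr7:30763506-30763755: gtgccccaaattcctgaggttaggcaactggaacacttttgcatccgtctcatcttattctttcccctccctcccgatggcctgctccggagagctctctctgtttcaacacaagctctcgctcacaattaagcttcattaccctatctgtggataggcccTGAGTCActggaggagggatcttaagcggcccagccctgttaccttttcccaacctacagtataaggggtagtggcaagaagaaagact
Krtdap, chr7:30787655-30787904: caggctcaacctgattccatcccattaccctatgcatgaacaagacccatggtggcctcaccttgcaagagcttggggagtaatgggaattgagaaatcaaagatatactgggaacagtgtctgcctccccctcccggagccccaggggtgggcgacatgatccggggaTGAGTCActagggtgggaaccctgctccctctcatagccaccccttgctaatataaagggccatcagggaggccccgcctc
The match ended 82 bases before the start site in Dmkn and 74 bases before it in Krtdap. The Sbsn window ended within a match that crossed its start site, and with 50 bases after the start included all 3 genes held the letters, while Pi16, Dpp4 and Cd55 did not. Of all 32851 windows of the table, 4.46% held either form in the 250 bases and 5.20% with the 50 bases after the start. Of 13 genes named below as higher in members, 1 (7.69%) held either form in the 250 bases. Krtdap is itself among the genes named below. These are letters in a window, not measured binding, and their part in the joint detection was not tested.

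The share of FAPs that were adventitial did not differ beyond counting error. It was 6.30% (67 of 1064; 95% CI 4.91 to 7.93) in the DMSO and 6.65% (79 of 1188; 5.30 to 8.22) in the MVC library, a difference of 0.353 percentage points with a Newcombe 95% interval of -1.71 to 2.39. Of all kept cells it was 1.23% (0.956 to 1.56) and 1.45% (1.15 to 1.80), a difference of 0.216 points (-0.219 to 0.655). The interval of this second difference left out 0 when cells were thinned to equal depth (0.628 points, 0.0602 to 1.22), when Sbsn was taken out of the rule (0.401, 0.0379 to 0.774) and when Dmkn was (0.419, 0.0371 to 0.810). Meanwhile the parenchymal group was 13.5 points (9.47 to 17.4) more of the FAPs in the MVC library, and the inflammatory group -6.86 points (-10.1 to -3.64). Over all FAPs, the MVC to DMSO ratios of the parenchymal rule genes ran from 1.11 (Cxcl14) to 2.41 (Col15a1). Those of the inflammatory rule genes ran from 0.587 (Ptx3) to 1.06 (Dio2). The part of these genes in the differences of share was not tested.

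Genes outside the rule placed the members together as well. Neighbours were found among all FAPs of a library from 1000 variable genes without the 20 rule genes. Of a member's 15 nearest cells, a mean of 56.0% were members in the DMSO and 52.7% in the MVC library, against 2.25% and 2.88% for other FAPs. Most of the 15 were members for 38 of 67 DMSO and 49 of 79 MVC members, and for 6 and 17 of the other FAPs.

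The cells were checked against markers of other cell types. Dcn, a proteoglycan of the fibroblast lineage used in the gate, was at 10601 and 7480 CPM. Over all FAPs it was higher, at 15357 and 12632 CPM. Pdgfra, also used in the gate, was at 214 and 317 CPM in members and at 428 and 424 CPM over all FAPs. Cd34 and Ly6a (Sca-1), surface proteins of FAPs that the rule did not use, were detected in at least 97.5% of members of each library. The 7 immune markers summed to 8.26 CPM in DMSO and 5.18 CPM in MVC members, with Cd52 and Cd3e at 0 UMIs in both. The 5 satellite cell markers summed to 1.03 and 0 CPM, with Myf5, Calcr, Chodl and Myod1 at 0, and the 4 myofibre markers to 27.9 and 26.9 CPM. The 5 mural markers summed to 21.7 and 21.8 CPM, and the 5 nerve markers to 22.7 and 11.4 CPM. The 5 endothelial markers summed to 64.0 CPM in DMSO and 140 CPM in MVC members, mostly from Pecam1 (46 and 95 UMIs), with Cdh5 at 3 and 4 UMIs. The 6 tendon markers summed to 130 and 393 CPM, since 1 MVC cell held 170 of the 171 Fmod UMIs and all 32 Tnmd UMIs. In all, 13 DMSO and 10 MVC members held at least 5 UMIs summed over the tendon, mural, endothelial, satellite cell and nerve markers. In each library 2 of them were called doublets.

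Beyond their markers, members differed from the other FAPs in a broad set of genes, led by Krtdap among the higher and Mgp among the lower ones. In both libraries 223 of 10246 genes (2.18%) were at least 2-fold higher in members and 331 (3.23%) at least 2-fold lower, with a pseudocount of 10 CPM. As the rule chose the cells on this contrast, the counts and the values below are a description.

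The highest were led by Krtdap, with a log2 ratio of 4.55 in the DMSO and 3.89 in the MVC library. Igfbp5, which binds insulin-like growth factors, stood at 2953 CPM in members against 262 CPM in the other DMSO FAPs, and at 4333 against 453 CPM in the MVC library. Sema3c, a secreted guidance protein that acts through neuropilin and plexin receptors, stood at 1201 against 142 CPM and at 1585 against 189 CPM. It was found in 95.5% of DMSO and 96.2% of MVC members, and in 2.73% and 1.31% of Cdh5 cells. The related Sema3e, a ligand of plexin D1, stood at 360 against 20.3 CPM and at 264 against 21.4 CPM. Efna5, a membrane-bound ephrin, had log2 ratios of 2.59 and 2.81. Bmp3, a member of the BMP family that opposes other BMPs, stood at 161 against 2.69 CPM and at 90.1 against 4.63 CPM. Aldh1a3, which makes retinoic acid, had log2 ratios of 2.65 and 2.73, and the nuclear receptor gene Rorb 2.58 and 3.04.

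Kcnq5, Dtna, Sntg1, Uchl1 and Sv2c, also among the 20 highest, are better known from nerve or muscle. The potassium channel gene Kcnq5 stood at 280 against 23.4 CPM in the DMSO and at 551 against 32.5 CPM in the MVC library. Dtna, a part of the dystrophin complex, stood at 202 against 8.17 CPM and at 115 against 4.72 CPM. Sntg1, a syntrophin that binds that complex, stood at 664 against 15.9 CPM in the DMSO library and at 114 against 13.2 CPM in the MVC library. Its place in the list thus differed between the libraries, at log2 ratios of 4.703 and 2.419. Uchl1, a deubiquitinase of neurons, had 2.42 and 2.41, and the synaptic vesicle gene Sv2c 2.45 and 3.37. The Sv2c locus overlaps a gene model on the same strand. The other genes, Car8, Ildr2, Limch1, Tmem100, Smpd3, Tmeff1 and Efhd1, had ratios of 2.43 to 3.09. Limch1 was also found in 57.2% and 59.2% of Cdh5 cells.

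**Figure D2:**
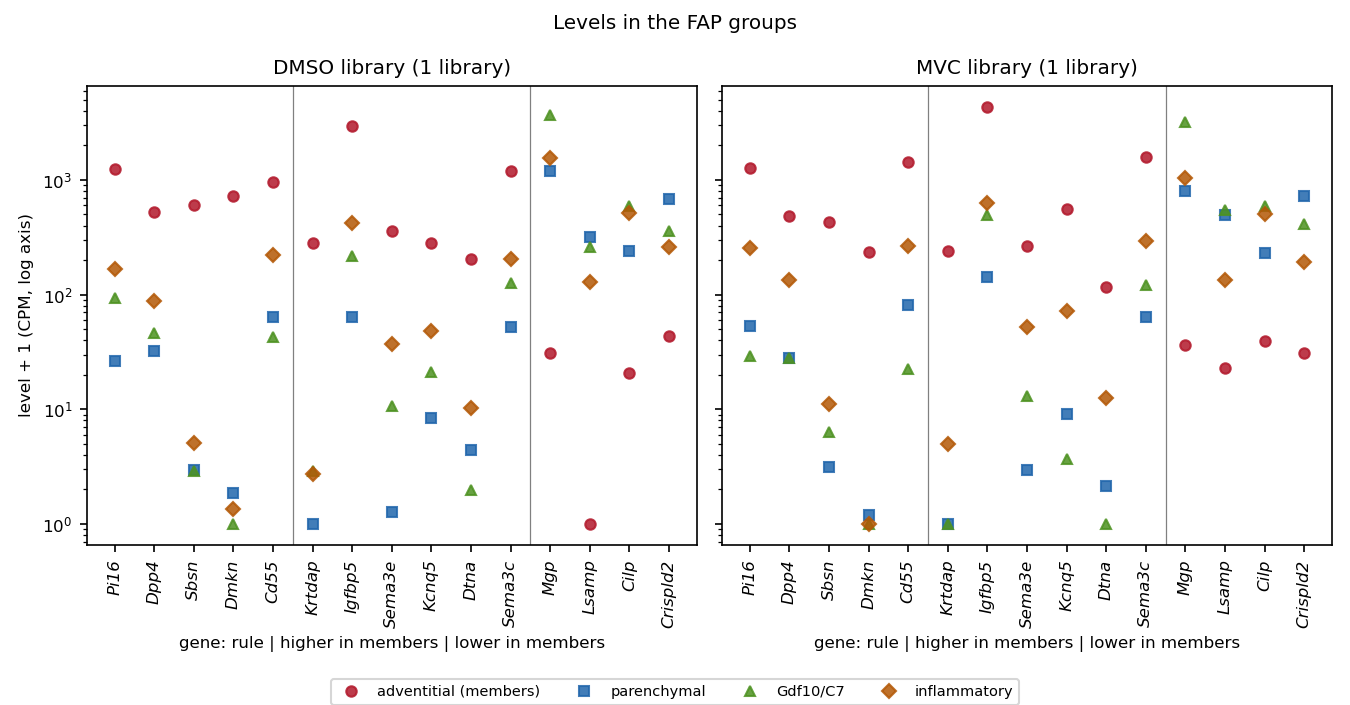
Summed level plus 1 (y axis, CPM, log axis) of 15 genes in the 4 FAP groups, 1 panel for each library, with 1 point for each group and no error bars. The left block holds the rule genes, the middle block genes higher in members and the right block genes lower in members. In both panels members (red circles) lie above the other groups for Krtdap to Sema3c and below them for Mgp to Crispld2.

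The lowest genes were led by Mgp, the matrix Gla protein that restrains calcification. It stood at 29.9 CPM in members against 1850 CPM in the other FAPs of the DMSO library and at 35.2 against 1270 CPM in the MVC library. The Gdf10/C7 group held the most, at 3643 and 3198 CPM. The cell adhesion gene Lsamp had 0 UMIs in DMSO members, which is at least 72.2-fold lower than 224 CPM in the other FAPs (floor of 3 counts over the members), and was 15.6-fold lower in MVC members. Grm8, a glutamate receptor gene, had 0 UMIs as well, at least 27.9-fold lower, and was 11.8-fold lower in the MVC library. Cilp, a matrix protein of cartilage, was at 19.6 against 413 CPM and at 38.3 against 441 CPM. Crispld2, Bmper (a BMP-binding protein), Apod (a lipid carrier), Ifi203 and Steap4 had log2 ratios between -3.68 and -2.92. The loci of Ifi203 and Mndal overlap on the same strand, and their reads may be shared.

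**Figure D3:**
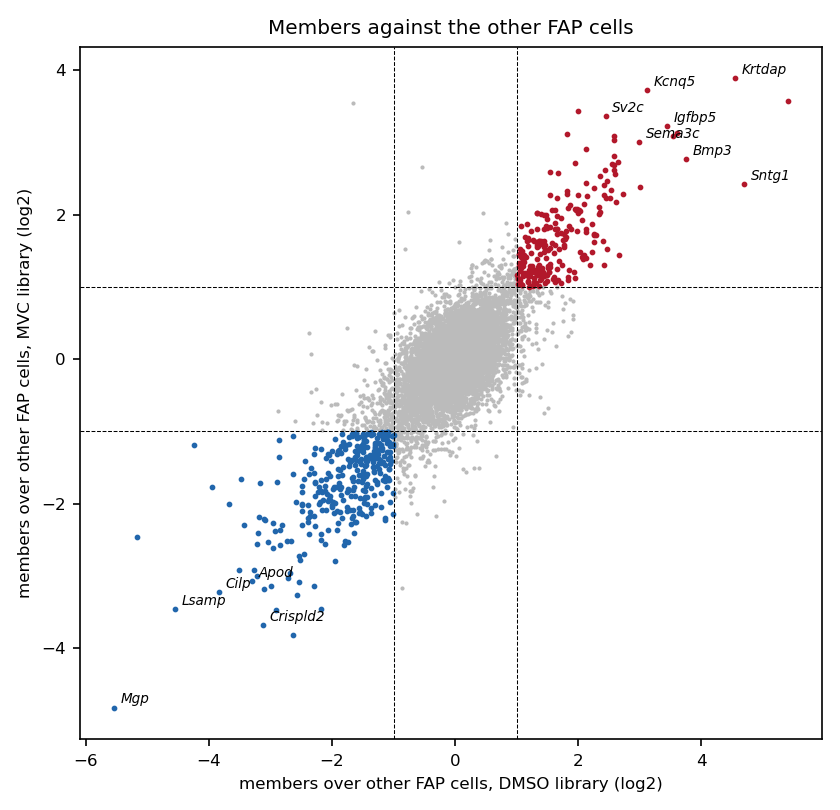
The log2 ratio of members over the other FAPs in the DMSO (x axis) and the MVC library (y axis) for 10246 genes, pseudocount 10 CPM. Red points are the 223 genes at least 2-fold higher in both libraries, blue points the 331 at least 2-fold lower, and dashed lines mark 2-fold. Krtdap lies at the upper right and Mgp at the lower left.

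Lists of genes with a shared role were then read in the same contrast, where the median over all genes was 0.02 in both libraries. The lists were chosen with earlier results of these data known, so their counts describe the members and do not test what they are. Of 19 tested adventitial genes outside the rule, 15 were at least 2-fold higher in members in both libraries and none lower, with a median of 1.52 in each. They included Anxa3, Procr (the endothelial protein C receptor, a marker of progenitors), Ackr3 and Ly6c1, and 57.1% of the words of Ly6c1 are shared with Ly6c2. Of 12 parenchymal genes outside the rule 11 were lower, at medians of -2.44 and -2.15, among them Col4a1, Col4a2, Lpl and Sparcl1. Elastic fibre and microfibril genes held 5 of 18 that were higher, namely Fbn1, Ltbp1, Mfap5, Efemp1 and Emilin2, and none lower, at medians of -0.24 and -0.03. Fbn1, Mfap5 and Emilin2 are also on the adventitial list, and Eln, Fbln1, Fbln2 and Ltbp4 lay below 0 in both libraries. Fibrillin 1 (Fbn1) stood at 1429 against 539 CPM in the DMSO and at 2692 against 657 CPM in the MVC library. Among 13 interstitial collagens only Col14a1, a collagen that binds fibril surfaces, was higher (466 against 108 CPM and 647 against 147 CPM), and 3 were lower. Basement membrane genes were lower in 5 of 13 and small leucine-rich proteoglycans in 4 of 8. Of 7 hyaluronan genes, Has2 and Ugdh were higher, and the list had medians of 0.96 and 0.91.

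Heat shock and immediate early genes, both of which are induced when tissue is dissociated, included many that were lower in members. Heat shock genes were lower in 8 of 9, at medians of -1.49 and -1.14, and immediate early genes in 7 of 20, at medians of -1.353 and -1.003. Egr1, an immediate early transcription factor, stood at 533 against 3939 CPM in the DMSO and at 1719 against 4395 CPM in the MVC library. Klf4 was the 1 gene of the 20 that was higher, at 1751 against 510 CPM and at 1108 against 345 CPM. Of 20 TGF-beta and BMP genes 2 were higher (Tgfbr2 and Bmp7) and 6 lower.

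The comparison of MVC with DMSO within members addressed the question of the study, whether MVC changes senescence and inflammatory signalling in aged muscle. Of 5278 genes with at least 50 UMIs over both libraries, 142 (2.69%) were at least 2-fold higher and 90 (1.71%) at least 2-fold lower in MVC members, with a pseudocount of 10 CPM and a median of 0.07 over all genes. Scaled by the median of ratios instead, 112 were higher and 104 lower. In the other FAPs, with many more cells, 4 and 12 of these 5278 genes passed 2-fold. In the library where the gene was higher, over 50% of the UMIs came from 3 cells in 29 of the higher and 24 of the lower genes, and such genes were not named unless they belonged to a list.

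Cxcl13, the chemokine that draws B cells, was the lowest gene in MVC members. It had 807 UMIs in 33 of 67 DMSO members (833 CPM) and 40 UMIs in 6 of 79 MVC members (41.4 CPM), a ratio of 0.0497 (exact conditional 95% CI 0.0353 to 0.0683). It was lower in each other FAP group too, with a ratio of 0.108 (0.0949 to 0.122) over all other FAPs. After thinning, it was found in 38.8% of DMSO and 4.05% of MVC members, against 0.0935% and 0.122% of Cdh5 cells. Sntg1 had 643 UMIs in 34 DMSO members and 110 UMIs in 14 MVC members (664 and 114 CPM, ratio 0.172, 0.139 to 0.210). Its ratio in the other FAPs was 0.829 (0.661 to 1.04). Mrgprg, a receptor gene of the Mas-related family, had 120 UMIs in DMSO and 9 in MVC members (124 and 9.32 CPM), and at most 1.49 CPM in the other FAPs.

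Sntg1 and Mrgprg were read again among the members with a Dmkn UMI, since that share differed between the libraries. There Sntg1 stood at 778 CPM in DMSO and 207 CPM in MVC members, and Mrgprg at 155 and 17.9 CPM. Without a Dmkn UMI, Sntg1 stood at 210 and 50.5 CPM, and Mrgprg had 0 UMIs in DMSO and 2 in MVC members. Cxcl13 stood at 833 and 43.4 CPM with a Dmkn UMI and at 835 and 40.0 CPM without one. Sntg1 and Cxcl13 were lower in the MVC library with and without a Dmkn UMI, and Mrgprg was lower in the members with one. These MVC values rest on few cells. Without a Dmkn UMI, Sntg1 had 29 UMIs in 5.77% and Cxcl13 23 UMIs in 3.85% of 52 MVC members. With a Dmkn UMI, Cxcl13 had 17 UMIs in 14.8% of 27. The part of the Dmkn share in the ratios over all members was not tested.

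Lox, the lysyl oxidase that cross-links collagen and elastin, was also among the 12 lowest. It had 228 UMIs in 76.1% of DMSO and 55 UMIs in 19.0% of MVC members, with levels of 235 and 57.0 CPM and a ratio of 0.242 (0.177 to 0.326). Its 3 highest cells held 67.3% of the MVC UMIs, its log2 ratio went from -1.87 to -1.17 at equal depth, and its ratio in the other FAPs was 0.510. Galnt15, a glycosyltransferase, stood at 250 and 71.5 CPM (ratio 0.286), close to the ratio of 0.253 in the other FAPs. Nr4a3, an early-response nuclear receptor, stood at 342 and 86.0 CPM. Plac8, Enc1 and Rad51b had ratios of 0.204, 0.149 and 0.0577, and at equal depth the log2 ratios of Enc1 and Rad51b went from -2.06 to -1.44 and from -2.72 to -2.11. Rps27rt, at 0.290, shares 92.7% of its words with other genes and is uncertain.

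Among the 12 highest, Igf1 and Lum encode secreted products of fibroblasts. Igf1, the growth factor for muscle fibres, had 35 UMIs in DMSO and 171 in MVC members, at 36.1 and 177 CPM, a ratio of 4.90 (3.39 to 7.27). The other FAPs held more of it, 196 and 333 CPM, with a ratio of 1.70 (1.61 to 1.79). Lumican (Lum), a proteoglycan that spaces collagen fibrils, stood at 33.0 and 146 CPM and was found in 29.9% of DMSO and 68.4% of MVC members. Its ratio was 4.42 (2.99 to 6.71) in members and 2.01 (1.93 to 2.09) in the other FAPs. C1qtnf7, a secreted relative of adiponectin, had ratios of 4.29 (2.90 to 6.52) and 2.18, but at equal depth its log2 ratio in members went from 1.82 to 0.76, under 2-fold. Dact2, a regulator of Wnt and TGF-beta signalling that is itself an adventitial gene, stood at 32.0 and 121 CPM, and at 1.86 and 5.07 CPM in the other FAPs.

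Egr1 was among the 12 highest as well. It had 516 UMIs in DMSO and 1660 in MVC members, at 533 and 1719 CPM, a ratio of 3.23 (2.92 to 3.57) against 1.12 (1.10 to 1.13) in the other FAPs, and its log2 ratio went from 1.67 to 1.07 at equal depth. Among members with a Dmkn UMI it stood at 194 and 662 CPM, and without one at 1874 and 2439 CPM. Nr1d1 (Rev-erb alpha), a repressor of the circadian clock, stood at 16.5 and 77.7 CPM, with a ratio of 4.702 (2.71 to 8.64) against 2.29 in the other FAPs, but at equal depth its log2 ratio in members went from 1.72 to 0.87, under 2-fold. Ret, a receptor for GDNF family ligands, went from 6 to 50 UMIs and Zfp608 from 6 to 57 UMIs, so their ratios of 8.36 (3.58 to 23.9) and 9.53 (4.12 to 27.0) are wide. Pde4b, a cAMP phosphodiesterase, stood at 12.4 and 105 CPM, but at equal depth its log2 ratio was -0.26. Syne1, Prkd1 and Filip1l had ratios of 5.38, 4.91 and 3.43, and 13.9% of the words of Syne1 are shared. At equal depth the log2 ratio of Syne1 went from 1.97 to 0.55, under 2-fold, and that of Prkd1 from 1.84 to 1.14. Pde4b, Syne1 and Filip1l were found in 61.5% to 75.3% of Cdh5 cells, and the endothelial markers summed to 64.0 and 140 CPM in the members, a part in these ratios that was not tested. With the 13 DMSO and 10 MVC members holding other markers removed, an alternative added after the data were seen, 151 genes were higher and 91 lower.

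**Figure D4:**
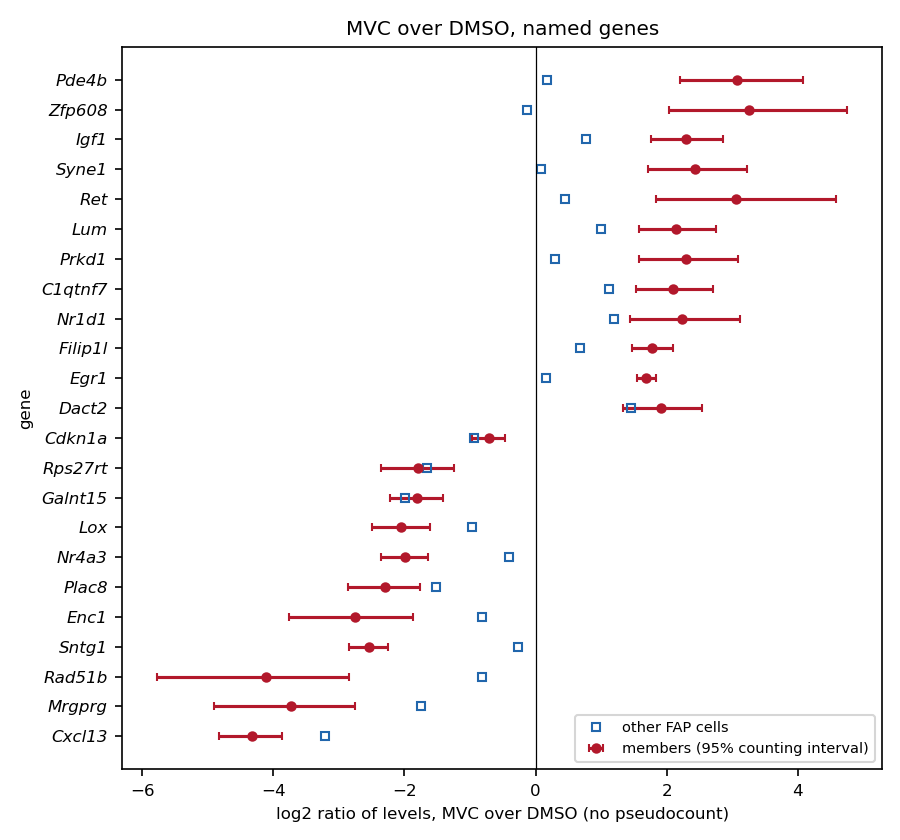
The log2 ratio of levels, MVC over DMSO without a pseudocount (x axis), for the 12 highest and 10 of the 12 lowest genes and Cdkn1a (y axis), in members (red, with 95% counting intervals) and in the other FAPs (open squares). Igf1, Lum and Egr1 lie right of 0 and Cxcl13, Sntg1 and Lox left of it, mostly farther from 0 in members than in the other FAPs. All genes but Cdkn1a were ranked by their ratio in members, so a larger ratio there follows in part from the choice.

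Of 12 tested interstitial collagens 6 were at least 2-fold higher in MVC members and none was lower. The median log2 ratio was 0.95 against 0.57 in the other FAPs. Col3a1 stood at 339 and 715 CPM (ratio 2.11, 1.85 to 2.41), close to the 2.12 of the other FAPs, and Col6a3 at 35.1 and 120 CPM (3.42, 2.32 to 5.17). Col6a2 and Col5a3 had log2 ratios of 1.20 and 1.56. For Col12a1 and Col8a1, the remaining 2, over 50% of the UMIs came from 3 cells. The main fibril chains Col1a1 and Col1a2 did not pass, at ratios of 1.60 and 1.35. Of 7 small leucine-rich proteoglycans 4 were higher, with Aspn at 177 and 473 CPM, Bgn at 32.0 and 111 CPM, and Lum as above. The fourth was Fmod, which rests on 1 cell. Omd was lower, and Ogn and Prelp had log2 ratios of -0.12 and 0.04. Of 15 elastic fibre genes only Lox passed 2-fold, and Fbn1 stood at 1429 and 2692 CPM (1.88, 1.76 to 2.01), a larger ratio than the 1.22 of the other FAPs. No basement membrane gene of 10 passed, at a median of 0.38. No hyaluronan gene of 7 passed, at a median of -0.25. Of 10 metalloproteinase and inhibitor genes Adamts4 and Mmp3 were lower, each carried by few cells.

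The chemokines Ccl3, Ccl4 and Ccl5 were nearly absent from the members and from the other FAPs alike. In members Ccl3 and Ccl4 had 0 UMIs in both libraries, and Ccl5 had 2 in DMSO and 1 in MVC members. In the other FAPs of the DMSO and MVC libraries, Ccl3 stood at 0.371 and 0.178 CPM. Ccl4 stood there at 1.76 and 1.87 CPM, and Ccl5 at 0.371 and 1.16 CPM. Finding 0 of 67 and 0 of 79 cells with a UMI allows shares of up to 4.48% and 3.80%, or 3.10 and 3.11 CPM, which limits cells with a UMI and not cells that express the gene. Ccl4 was found in 21.2% and 27.7% of cells with at least 2 UMIs of Ptprc. Ackr2, an atypical receptor that removes inflammatory chemokines, stood at 91.9 and 52.8 CPM (ratio 0.575, 0.399 to 0.820), and it was at 14.3 and 13.5 CPM in the other FAPs.

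Chemokines, complement and antigen presentation mostly lay below 0. Of 12 chemokines and cytokines only Cxcl13 and Lif were at least 2-fold lower and none higher, at a median of -0.34 against -0.28 in the other FAPs. Ccl2 stood at 2085 and 1999 CPM (0.959, 0.900 to 1.02), Cxcl1 at 2815 and 2646 CPM, and Il6 at 417 and 402 CPM (0.963, 0.836 to 1.11). Csf1, a growth factor for macrophages, had a ratio of 0.596 (0.517 to 0.686). Of 8 complement genes 2 passed downwards, C4b among them (158 and 73.5 CPM), 7 lay below 0, and the median was -0.54. C4b shares 55.9% of its words with C4a. C3 stood at 1615 and 1209 CPM (0.748, 0.693 to 0.808), and Serping1, the C1 inhibitor, at 1986 and 1341 CPM. None of 8 MHC class I genes passed 2-fold but all 8 lay below 0 in this scaling (median -0.44), with B2m at 648 and 430 CPM (0.663, 0.584 to 0.751) in members and 378 and 387 CPM in the other FAPs. None of 5 interferon-stimulated genes passed, at a median of 0.17.

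Cdkn1a (p21), the cell cycle inhibitor that the study read beside senescence, had 344 UMIs in DMSO and 209 in MVC members. Its levels were 355 CPM (95% CI 319 to 395) and 216 CPM (188 to 248), a ratio of 0.609 (0.511 to 0.726). In the parenchymal group the ratio was 0.420 (0.377 to 0.467), in the Gdf10/C7 group 0.477 (0.379 to 0.596) and in the inflammatory group 0.746 (0.670 to 0.830), so the members lay between them. A Cdkn1a UMI was found in 73.1% of DMSO and 54.4% of MVC members, in 59.7% and 36.5% after thinning, and in 87.9% and 68.5% of Cdh5 cells, a cell type that expresses it. Among members with a Dmkn UMI, Cdkn1a stood at 392 CPM in the DMSO and 322 CPM in the MVC library. Without one it stood at 210 and 144.5 CPM. The share of members with a Dmkn UMI differed between the libraries, and its part in the ratio over all members was not tested. Cdkn2a (p16) had 2 and 1 UMIs. Of 3 tested CDK inhibitors none passed 2-fold, with Cdkn1b and Cdkn1c at ratios of 0.918 and 0.983. None of 5 p53 target genes passed, with Mdm2 at 57.8 and 78.7 CPM. Of 13 secreted senescence genes of human muscle 2 were higher (Cxcl3 and Col12a1) and 1 lower (Mmp3), each with over 50% of its UMIs in 3 cells.

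Stress and hormone responses differed by list. All 9 heat shock genes lay above 0 in this scaling, 2 of them (Hspa1a and Hsph1) past 2-fold, at a median of 0.66 against 0.30 in the other FAPs. Hspa1a stood at 1034 and 2240 CPM, and it shares 15.5% of its words with other genes. Immediate early genes went both ways. Egr1, Fos, Atf3 and Zfp36 were at least 2-fold higher, Fosl1 was lower, and the median of 18 was -0.20. Fos stood at 424 and 981 CPM (2.31, 2.06 to 2.60) and Atf3 at 259 and 781 CPM (3.01, 2.61 to 3.49), while both changed little in the other FAPs (0.99 and 1.04). Klf4 had a ratio of 0.633 (0.586 to 0.683). Of 11 glucocorticoid-responsive genes Mt2 and Serpina3n passed downwards, with the metallothionein Mt2 at 3245 and 1577 CPM (0.486, 0.457 to 0.517). In the clock list Nr1d1 was the one of 12 past 2-fold, and it was under 2-fold at equal depth.

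Growth factor and fate genes showed few large differences. Of 5 IGF genes Igf1 alone passed, Igfbp5 stood at 2953 and 4333 CPM (1.47, 1.40 to 1.54), and Igfbp4 at 1280 and 696 CPM (0.544, 0.494 to 0.598). Of 7 adipogenic genes Cebpb, an early driver of fat cell formation, stood at 923 and 336 CPM (0.363, 0.319 to 0.413), against a ratio of 0.828 in the other FAPs. Plin2 was higher, at 17.6 and 50.7 CPM, and Pparg had 24 and 4 UMIs, too few to enter. Of 8 Wnt genes Sfrp1 was lower and Dkk2 higher, the latter on few cells. Of 16 TGF-beta and BMP genes Chrdl1 was lower and Thbs1 higher, and Fstl1 stood at 1153 and 1802 CPM (1.56, 1.45 to 1.69). Of the 20 adventitial genes outside the rule only Dact2 passed 2-fold, 11 others lay above 0 and 8 below, and the median was 0.22. Of 8 parenchymal genes only Apod passed, at 334 and 156 CPM, and it was lower in the other FAPs too.

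**Figure D5:**
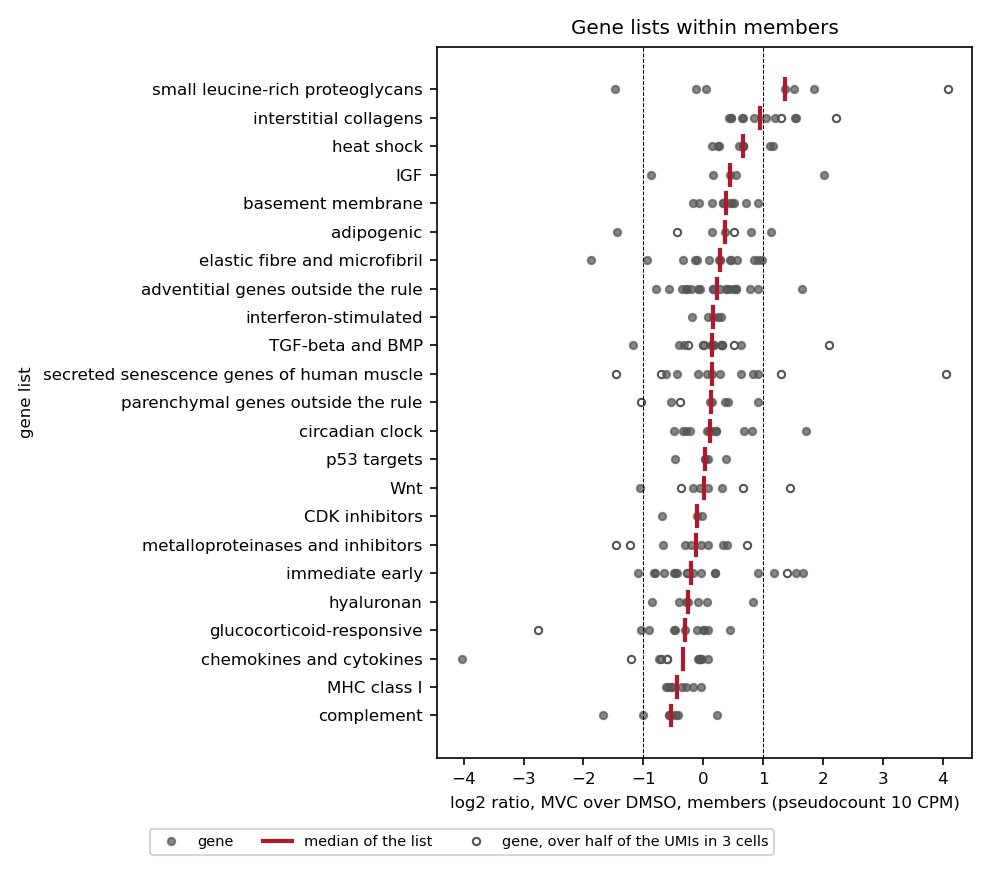
The log2 ratio of MVC over DMSO in members, pseudocount 10 CPM (x axis), for the genes of 23 lists (y axis), with the median of each list as a red bar and open circles where over 50% of the UMIs came from 3 cells. Dashed lines mark 2-fold. Interstitial collagens (median 0.95) lie right of 0 and complement genes (median -0.54) mostly left of it.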

How the data were processed

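The data were 2 droplet libraries (10x Genomics) of limb muscle mononuclear cells, 1 per treatment, grouped by the treatment in the labels. The deposited values were raw counts of UMIs per gene and cell barcode, made by the authors with Cell Ranger 7.0.0, and the submitters' processing notes also name Seurat 5.0.1 and build mm10. The libraries held 39150511 (DMSO) and 36063575 (MVC) UMIs. Barcodes under 500 genes or over 10% mitochondrial UMIs were dropped, as in the study's methods, which removed 6.45% and 9.81% of barcodes. The members and the gene lists were chosen with earlier results of these data known.

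Counts were summed over the members of each library (968510 and 965589 UMIs) and scaled to CPM. Log2 ratios used a pseudocount of 10 CPM and genes with at least 50 UMIs, and 1167 rule, Y-linked, mitochondrial, haemoglobin, immunoglobulin and Xist genes were left out. With 1 library per group no test was made. Shares carry exact Clopper-Pearson, levels exact Poisson, ratios exact conditional and share differences Newcombe 95% intervals. For shares of cells with a UMI, cells were also thinned to 4000 UMIs, leaving out 5 MVC members and no DMSO member. Named were the 20 highest and 10 lowest genes against the other FAPs, ranked by the library nearer 0, and the 12 highest and 12 lowest of MVC against DMSO, found in at least 10% of members and with at most 50% of UMIs in 3 cells of the library where the gene was higher. Unnamed gene models were left out, and Ccl3, Ccl4, Ccl5, Cdkn1a and Cdkn2a were always given. Some genes that these rules name are not reported here. Lists are given by counts and medians.

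Doublets were scored against simulated pairs (2 per cell, 50 neighbours), 474 cells were called at 0.8% per 1000 cells, and they were kept except in an alternative. No correction for free RNA was made. Positions came from GENCODE M21 (GRCm38) for 32235 of 32285 gene IDs, and 2 list symbols were matched by synonym. The ratios and intervals were computed on simulated Poisson counts, the model that the intervals assume. The simulation held no UMIs gathered in few cells, so it cannot test the intervals for genes with such UMIs. Analyses used Python 3.11.15, numpy 2.4.6, scipy 1.17.1, pandas 2.3.3 and scikit-learn 1.9.0. Alternatives changed the cell filter, doublets, minimum of marker genes, depth, scaling, pseudocount and UMI minimum, and left each marker gene out of the rule. In 3 alternatives chosen after seeing the data, genes carried by 3 cells, members with other markers, or Dmkn (for the gene counts) were left out.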

Additional observations from a re-analysis of the deposited data

Results flagged for a closer look

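Of the named and listed genes past 2-fold in members, 5 lay on the other side of 0 in the other FAPs with a 95% counting interval of the ratio there that left out 1. The differences between members and other FAPs were not tested. Plin2, a lipid droplet protein, had a log2 ratio of MVC over DMSO of 1.14 in members (17 and 49 UMIs) and -0.61 in the other FAPs. Zfp36, which destabilises inflammatory mRNAs, had 1.40 in members (117 and 323 UMIs) and -0.28 in the other FAPs, and 55.4% of its UMIs in MVC members came from 3 cells. Thbs1, a matrix protein that activates TGF-beta, had 2.10 and -0.61, and 1 MVC cell held 101 of its 181 UMIs. Cxcl3 had 4.05 and -1.14, with 1 UMI in DMSO members and 167 in 3 MVC members. Mmp3 had -1.46 and 0.36, with 91.8% of its DMSO UMIs in 3 cells.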

How the results depend on the processing

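The member share of FAPs differed by 0.204 to 1.49 points and that of all kept cells by 0.163 to 0.628 points over the alternatives. All differences were above 0, but every interval for the share of FAPs held 0. Leaving 1 marker gene out of the rule kept 31 (without Cd55) to 45 (without Dmkn) of the 67 DMSO members. Of the 79 MVC members it kept 41 (without Pi16) to 68 (without Dmkn). The 142 higher genes became 62 at equal depth, 231 with a pseudocount of 1 CPM, 87 with at least 100 UMIs and 271 with at least 1 UMI. The 90 lower genes became 44 at equal depth, 54 with at least 100 UMIs and 177 with at least 1 UMI. Leaving out genes with over 50% of UMIs in 3 cells gave 113 and 66, and leaving Dmkn out of the rule 130 and 80. The median-of-ratios scaling moved the higher share of these genes from 61.2% to 51.9%. At equal depth the 223 genes higher in members than in the other FAPs became 135. The log2 ratio of Cdkn1a lay between -0.86 and -0.59. Pde4b turned from 2.36 to -0.26 at equal depth, and the median of the TGF-beta and BMP list from 0.15 to -0.0049 with the mean of each cell's CPM. Medians near 0 changed sign for the Wnt, p53, clock, interferon, immediate early and secreted senescence lists in some alternatives, and no direction is given for these lists. No paired analysis was possible because each group held 1 library. With 67 and 79 cells, genes under 50 UMIs entered none of the counts of called genes except where a lower minimum is given.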

Other observations

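Hmox1, the haem oxygenase induced by oxidative stress, was in none of the lists and was chosen after its values were seen. It stood at 2879 CPM in DMSO and 1113 CPM in MVC members, a ratio of 0.387 (0.360 to 0.415), and at 0.501 (0.490 to 0.513) in the other FAPs. Within the members it went with Dmkn, at 3502 CPM with and 410 CPM without a Dmkn UMI in the DMSO library, and at 2214 and 364 CPM in the MVC library. Fbn1 had the opposite order, at 1348 CPM with and 1752 CPM without a Dmkn UMI in the DMSO library, and at 1500 and 3503 CPM in the MVC library. Dbp, an output gene of the circadian clock and under the minimum of 50 UMIs, had 3 UMIs in DMSO and 29 in MVC members, with a ratio of 9.70 (3.005 to 49.7) against 5.21 (4.04 to 6.81) in the other FAPs.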
